A study of Mus musculus with 20 samples.

Results

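Transcripts of 9 genes that mark the thick ascending limb (TAL) and the distal convoluted tubule (DCT) of the mouse kidney were followed in 20 mice. The genes were chosen by name, Slc12a1, Umod, Kcnj1, Egf and Cldn16 for the TAL and Slc12a3, Trpm6, Pvalb and Calb1 for the DCT, and matched by symbol in the tables of raw counts. All 9 were found among the 15780 genes listed, and all 9 passed the filter that left 13990 genes for testing. Kidney poly(A) RNA was sequenced from female NCr nude mice, 7 weeks old on purchase, with 5 mice in each of 4 groups. Control mice were injected with PBS alone and gavaged with vehicle. EIC mice were injected 6 times with engineered immune complexes (EIC), each dose made of 0.2 mg of human galactose-deficient IgA1 (Gd-IgA1) and 0.1 mg of a recombinant IgG against it (rIgG), and were gavaged with vehicle. EIC + S60 and EIC + S120 mice had the same injections and were gavaged daily for 11 days with sparsentan at 60 or 120 mg/kg, a blocker of the endothelin A and the angiotensin II type 1 receptors. Kidneys were taken on day 12. No group received sparsentan without EIC, and all mice shared the nude genotype, which leaves them without mature T cells, so that the model holds human immune complexes in a host with a reduced immune system.

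The TAL reabsorbs sodium chloride without water, and its positive luminal voltage drives calcium and magnesium between the cells. The DCT follows it and reabsorbs sodium chloride through a different, thiazide-sensitive cotransporter, and it sets the final uptake of magnesium and much of that of calcium through its own channels. Both segments answer to hormones and to the WNK-SPAK kinases, which phosphorylate the salt cotransporters, and angiotensin II is among the signals known to act on the DCT.

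The roles of the 9 genes are as follows. Slc12a1 encodes the furosemide-sensitive Na-K-2Cl cotransporter NKCC2 of the TAL. Kcnj1 encodes ROMK, the potassium channel that recycles potassium to the TAL lumen, and is also active further along the distal nephron. Umod encodes uromodulin, the most abundant protein of normal urine. Egf encodes the epidermal growth factor precursor, which is made in the TAL and the DCT. Cldn16 encodes claudin-16, a tight junction protein of the path that magnesium and calcium take. Slc12a3 encodes the thiazide-sensitive NaCl cotransporter NCC, and Trpm6 the magnesium channel of the DCT. Pvalb encodes parvalbumin, found in the early DCT, and Calb1 encodes calbindin-D28K, a calcium buffer of the late DCT and of the connecting tubule.

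Genes lay on 9 chromosomes of GRCm38 in the GENCODE annotation. The TAL genes were Slc12a1 at chr2:125152505-125230002 (plus strand), Umod at chr7:119462711-119479282 (minus), Kcnj1 at chr9:32372493-32399197 (plus), Egf at chr3:129677565-129755316 (minus) and Cldn16 at chr16:26463135-26482765 (plus). The DCT genes were Slc12a3 at chr8:94329201-94366214 (plus), Trpm6 at chr19:18749983-18892511 (plus), Pvalb at chr15:78191114-78206400 (minus) and Calb1 at chr4:15881264-15908064 (plus). Exons of 2 members overlapped antisense genes: Umod shared 539 bases with Gm44588, and Egf shared 500 bases with 6330410L21Rik and 607 bases with Gm42697. No source used here states whether reads were counted by strand, so reads of these stretches cannot be assigned to either gene.

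Promoters are shown for 3 members whose transcripts, as described further on, moved with those of their own segment from mouse to mouse: Umod for the TAL, and Slc12a3 and Pvalb for the DCT. Each is the 250 bases before the RefSeq start of transcription on GRCm38.p6, read 5′ to 3′ on the strand of the gene, at chr7:119479263-119479512 (minus), chr8:94328958-94329207 (plus) and chr15:78206401-78206650 (minus). RefSeq promoters matched 8 of the 9 members, all but Calb1. Capitals mark the matches of 2 motifs that were searched on both strands: AAGGTCA, found in sites of the estrogen-related receptors, and TATAAA, the TATA box.
Umod: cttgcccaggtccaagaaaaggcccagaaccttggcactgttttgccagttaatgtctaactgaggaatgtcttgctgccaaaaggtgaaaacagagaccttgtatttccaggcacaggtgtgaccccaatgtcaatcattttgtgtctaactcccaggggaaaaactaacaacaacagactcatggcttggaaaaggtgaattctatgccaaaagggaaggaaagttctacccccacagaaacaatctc
Slc12a3: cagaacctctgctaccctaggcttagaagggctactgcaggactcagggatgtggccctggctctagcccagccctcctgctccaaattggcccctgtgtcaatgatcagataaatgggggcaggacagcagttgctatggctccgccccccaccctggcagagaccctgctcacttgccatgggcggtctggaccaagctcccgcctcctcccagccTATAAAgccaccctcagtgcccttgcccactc
Pvalb: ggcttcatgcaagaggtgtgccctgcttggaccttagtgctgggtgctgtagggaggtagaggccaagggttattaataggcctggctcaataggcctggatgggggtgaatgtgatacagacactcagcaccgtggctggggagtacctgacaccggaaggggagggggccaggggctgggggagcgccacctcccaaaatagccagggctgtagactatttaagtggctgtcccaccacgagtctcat
Among the 8 promoters only that of Slc12a3 held a match. TATAAA stood 32 bases before its start and occurs in 12.4% of the 32851 mouse promoters of this length. AAGGTCA, present in 4.08% of all, was in none of the 8.

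Libraries held between 12662345 and 38651781 counts, and the 9 genes together took 0.389% to 1.03% of them. The 2 deepest libraries were Control 651 and Control 652, so depth and the Control group are partly tied. EIC 65 was the 1 library with no gene at 0, while the other 19 had 234 to 654. Control 653 stood apart in osmotic stress genes: Akr1b3, aldose reductase, was at 535 CPM (counts scaled to a library of 1000000) there and at 30.9 to 104.8 CPM in the other 19 mice. How much cortex and medulla each tissue piece held is not stated in those sources.

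Per length, uromodulin was the highest of the 9. Mean levels over the 20 mice, in CPM per kilobase of exon, were 1228 ± 365 (SD, n = 20) for Umod, 183 ± 54.1 for Slc12a1, 104 ± 17.4 for Egf, 64.4 ± 12.4 for Kcnj1, 60.1 ± 12.7 for Pvalb, 50.8 ± 21.8 for Calb1, 18.1 ± 6.18 for Slc12a3, 8.57 ± 1.78 for Cldn16 and 0.680 ± 0.249 for Trpm6. Neighbours in this order differed in the same direction in all 20 mice except for Kcnj1 over Pvalb, which held in 13 mice, and Pvalb over Calb1, which held in 16. Those neighbours were thus not separated beyond their spread. The order rests on exon lengths of the GENCODE annotation, whose exon union of Slc12a3 is 11119 bases. Counts per library were smallest for Trpm6, at 39 to 300, and for Cldn16, at 114 to 531.

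**Figure D1:**
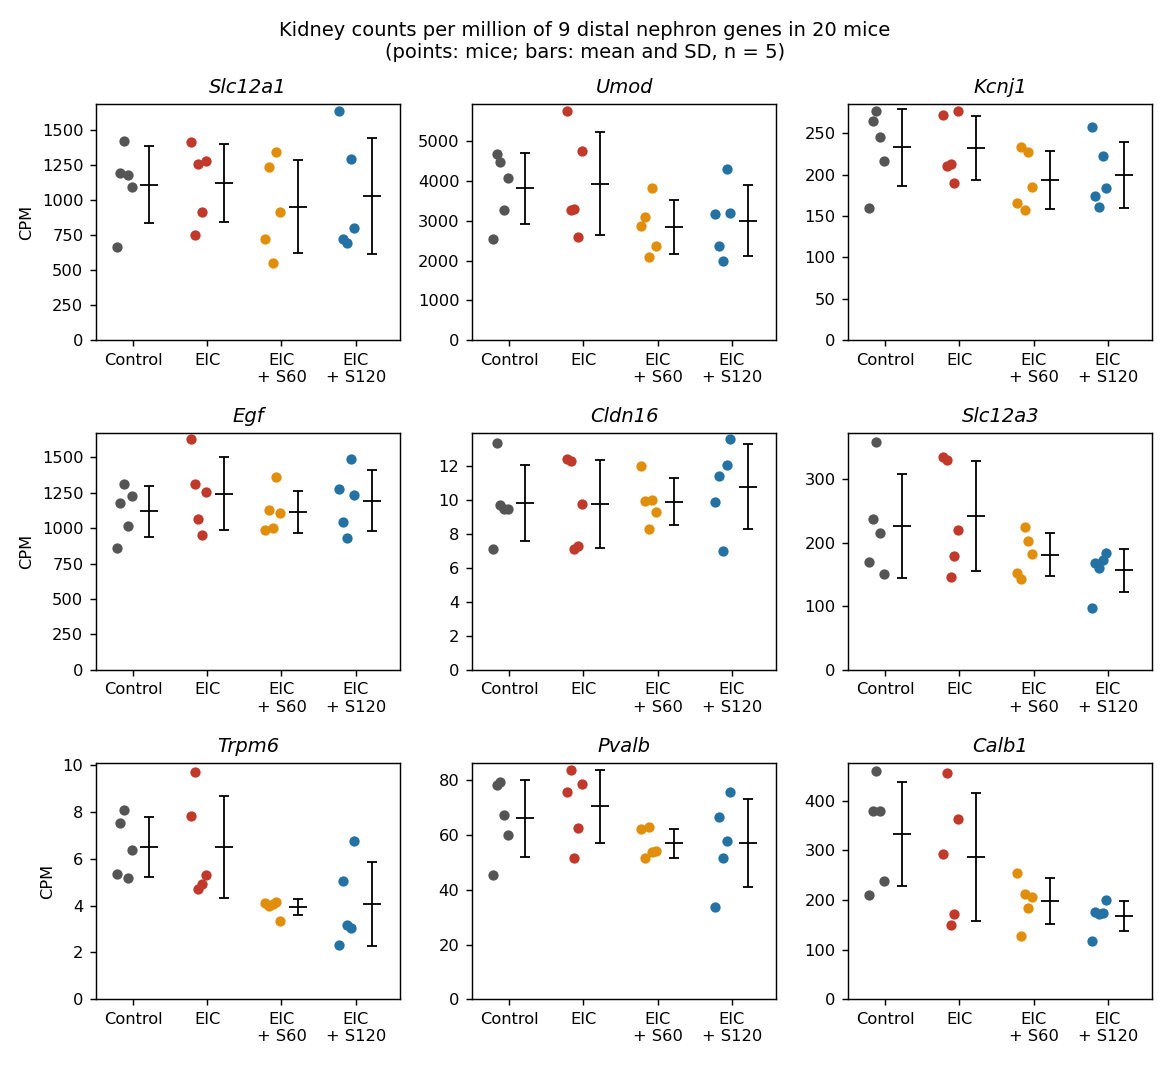
CPM (linear axis from 0) of the 9 genes in each of 20 kidneys, by group, with the mean and SD over 5 mice beside the points. The TAL genes in the first 5 panels overlapped among all groups, while Trpm6 in EIC + S60 and Calb1 in EIC + S120 lay below every Control mouse.

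Slc12a1 varied widely inside every group. In Control mice 651 to 655 it was at 666, 1192, 1420.5, 1182 and 1091 CPM, and in EIC mice 65 to 69 at 1416, 748, 1254, 917 and 1281 CPM. EIC + S60 mice 71 to 75 had 721, 1233, 551, 1344 and 918 CPM, and EIC + S120 mice 77 to 81 had 1634, 719, 696, 1289.6 and 803 CPM. The highest and the lowest of the 20 mice, EIC + S120 77 and EIC + S60 73, both received sparsentan and were 2.96-fold apart, and every group overlapped every other.

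Uromodulin mRNA was at 2538, 4664, 4482, 3277 and 4082 CPM in Control and at 5749.7, 3274, 3285, 2588 and 4744 CPM in EIC mice. It was at 2856, 3089, 2081, 3828 and 2354 CPM in EIC + S60 and at 3159, 2359, 1996, 4295 and 3181 CPM in EIC + S120 mice. The sparsentan groups lay lower on average, 2842 ± 680.1 and 2998 ± 888 CPM (SD, n = 5), than Control with 3808 ± 888 and EIC with 3928 ± 1286, but their ranges overlapped with both. EIC 65 had the highest Umod and the highest Egf level of all mice.

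Kcnj1, Egf and Cldn16 moved less. Kcnj1 ranged from 157 to 277 CPM over the 20 mice, with means of 233 ± 46.8 in Control, 232 ± 39.2 in EIC, 194 ± 35.2 in EIC + S60 and 199.7 ± 39.6 CPM with the higher dose. Egf ranged from 860.5 to 1632 CPM, with group means between 1117 ± 149 in EIC + S60 and 1245 ± 259.5 in EIC. Cldn16 ranged from 6.97 to 13.6 CPM, and its group means lay between 9.75 ± 2.58 in EIC and 10.8 ± 2.51 in EIC + S120. For each of these genes the groups overlapped.

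Slc12a3, the NCC transcript, was at 169, 238, 359, 215 and 151 CPM in Control and at 335, 329.8, 146, 179 and 219.8 CPM in EIC mice. EIC + S60 mice had 153, 142, 225, 203 and 182 CPM, and EIC + S120 mice 97.5, 169, 159, 173 and 184 CPM. High values were thus seen in 1 Control and 2 EIC mice, no mouse on sparsentan exceeded 225 CPM, and EIC + S120 77 had the lowest value of all 20.

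Trpm6, the magnesium channel, was at 5.34, 7.53, 8.09, 5.17 and 6.34 CPM in Control and at 7.82, 9.71, 4.72, 4.91 and 5.31 CPM in EIC mice. It was at 4.13, 3.98, 4.07, 4.16 and 3.36 CPM in EIC + S60 and at 2.31, 5.06, 3.18, 3.03 and 6.73 CPM in EIC + S120 mice. All 5 EIC + S60 mice lay below every Control and every EIC mouse. In EIC + S120, 4 of 5 mice lay below every Control mouse, and mouse 81 did not. These values come from 63 to 95 counts a library in EIC + S60 and 39 to 113 in EIC + S120.

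Calb1 was at 210.1, 379, 459, 379 and 239 CPM in Control and at 292, 455, 149, 172 and 363 CPM in EIC mice. EIC + S60 mice had 255, 128, 213, 184 and 207 CPM, and EIC + S120 mice 117, 176, 172, 175 and 199 CPM. Every EIC + S120 mouse lay below every Control mouse, whereas the EIC group, with a CV of 45% (SD over the mean, n = 5), spanned nearly the range of the other groups. Pvalb ranged from 33.6 to 83.8 CPM, with means of 66.0 ± 14.0 in Control, 70.4 ± 13.2 in EIC, 56.9 ± 5.36 in EIC + S60 and 57.0 ± 16.0 CPM for the higher dose, and all groups overlapped.

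The first comparison, EIC vs. Control, asks what the immune complexes alone did. None of the 9 genes was called a differentially expressed (DE) gene at an adjusted p under 0.05 by edgeR's quasi-likelihood test, by DESeq2 or by limma-voom, and none had an unadjusted p under 0.05, where 2.97% of all genes tested were DE genes by edgeR, 5.04% by DESeq2 and 2.89% by limma-voom and 16.8% had an unadjusted p under 0.05 by edgeR. Log2 fold changes (LFCs) of the members ran from -0.22 for Calb1 to 0.15 for Egf, with a median of 0.02 beside -0.01 over all genes. Slc12a1 had an LFC of 0.02 (95% interval -0.55 to 0.59), Slc12a3 of 0.10 (-0.42 to 0.59) and Umod of 0.04 (-0.48 to 0.51). Intervals of the steadier genes were narrower, as for Egf (-0.16 to 0.45) and Kcnj1 (-0.32 to 0.34). In bulk tissue, fewer cells of a type and less RNA per cell cannot be told apart.

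Against EIC, both doses of sparsentan gave mostly lower levels that did not pass the test. In EIC + S60 vs. EIC, 8 of 9 LFCs were negative, as were 50.6% over all genes, with a median of -0.31 beside 0.00 over all genes. No gene at all was DE by edgeR in this comparison (0% of those tested), while DESeq2 called 5 genes (0.0358%) and limma-voom 0, and no member was among them. At an unadjusted p under 0.05 by edgeR there were 846 genes (6.05%), of the members only Trpm6. Trpm6 had the largest difference, an LFC of -0.72 (SE 0.24, 95% interval -1.15 to -0.15, adjusted p = 0.738 by edgeR), and its groups did not overlap, as was the case, with the first group lower, for 0.386% of all genes. Umod had an LFC of -0.47 (interval -0.93 to 0.06, adjusted p = 0.817 by edgeR) and Calb1 of -0.54 (-1.01 to 0.12, adjusted p = 0.828).

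In EIC + S120 vs. EIC, where 0.0572% of genes were DE by edgeR, 0.475% by DESeq2 and 0.0286% by limma-voom, no member was by any of them. LFCs were negative in 8 of 9 members and in 49.5% of all genes, and 3 members had an unadjusted p under 0.05 by edgeR, as had 8.45% of all genes. The 3 were Calb1 with an LFC of -0.77 (95% interval -1.24 to -0.10, adjusted p = 0.460), Trpm6 with -0.68 (-1.21 to -0.21, adjusted p = 0.442) and Slc12a3 with -0.63 (-1.09 to -0.08, adjusted p = 0.517), all by edgeR. The median LFC was -0.65 over the 4 DCT genes and -0.13 over the 5 TAL genes, beside -0.48 and -0.24 in EIC + S60 vs. EIC. These comparisons share the 5 EIC mice, and the difference between the medians was not tested. Markers of the neighbouring collecting duct had negative LFCs at the higher dose too, in 10 of 10 principal cell genes (median -0.25) and 9 of 9 intercalated cell genes (median -0.29). No pair of groups was free of overlap for any member here.

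Sparsentan groups were also set against Control, which shares its 5 mice with the first comparison. In EIC + S120 vs. Control, Calb1 was lower by an LFC of -0.99 (SE 0.27, 95% interval -1.52 to -0.38), a mean of 168 ± 30.5 CPM against 333 ± 105 (SD, n = 5). It missed the threshold by edgeR (adjusted p = 0.0546) and passed it by DESeq2 (adjusted p = 0.0109) and limma-voom (adjusted p = 0.0435). Non-overlapping groups with EIC + S120 lower were seen in 3.02% of all genes, and DE genes in either direction made up 5.55% by edgeR, 8.36% by DESeq2 and 5.45% by limma-voom. Of the members, Calb1 and Trpm6 had an unadjusted p under 0.05 by edgeR, as had 20% of all genes. Trpm6 had an LFC of -0.68 (interval -1.25 to -0.24, adjusted p = 0.117 by edgeR) and Slc12a3 of -0.53 (-1.004 to 0.0058, adjusted p = 0.261). Pvalb, with -0.21 (-0.62 to 0.15), Umod, with -0.35 (-0.86 to 0.13), and Kcnj1, with -0.22 (-0.55 to 0.11), had negative LFCs within their error, while those of Egf (0.10) and Cldn16 (0.13) were positive. The call on Calb1 turned on single mice: without Control 653, which had its highest level, the adjusted p by edgeR was 0.127, and without Control 651, which had the lowest level of that group, it was 0.0351.

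At the lower dose, EIC + S60 vs. Control, 1.29% of genes were DE by edgeR, 2.67% by DESeq2 and 1.39% by limma-voom, and no member was by any of the 3 tools. Calb1 and Trpm6 had an unadjusted p under 0.05 by edgeR, as had 12.7% of all genes. Calb1 had an LFC of -0.76 (SE 0.27, 95% interval -1.30 to -0.16, adjusted p = 0.262 by edgeR). Trpm6 had an LFC of -0.72 (SE 0.24, interval -1.19 to -0.19, adjusted p = 0.174 by edgeR) with no overlap between the groups, as in 1.74% of all genes. Fitted on these groups alone, Trpm6 passed the threshold, with an adjusted p of 0.0330 by edgeR. It passed in no other alternative, and its adjusted p reached 0.342 by edgeR without Control 653. The TAL cotransporter gene Slc12a1 had an LFC of -0.22 (-0.82 to 0.31).

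The doses were compared directly in EIC + S120 vs. EIC + S60, where 0.0643% of genes were DE by edgeR, 0.580% by DESeq2 and 0.0572% by limma-voom, and no member was by any of the 3 tools. No member had an unadjusted p under 0.05 by edgeR, as had 8.08% of all genes. Calb1 had an LFC of -0.23 (95% interval -0.79 to 0.35), Slc12a3 of -0.21 (-0.73 to 0.28) and Trpm6 of 0.05 (-0.56 to 0.44). The interval of Calb1 spans 0.578-fold to 1.27-fold, so a dependence on dose was not detectable at this group size, which is not the same as its absence. A test of any difference among the 4 groups gave adjusted p values by edgeR of 0.103 for Trpm6 and 0.133 for Calb1, and of 0.384 or more for the other 7 members, where 3.55% of genes passed. By DESeq2's likelihood ratio test the adjusted p was 0.0253 for Trpm6 and for Calb1, where 7.36% of genes passed. By limma-voom neither gene passed, with adjusted p values of 0.0779 for Trpm6 and 0.130 for Calb1.

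**Figure D2:**
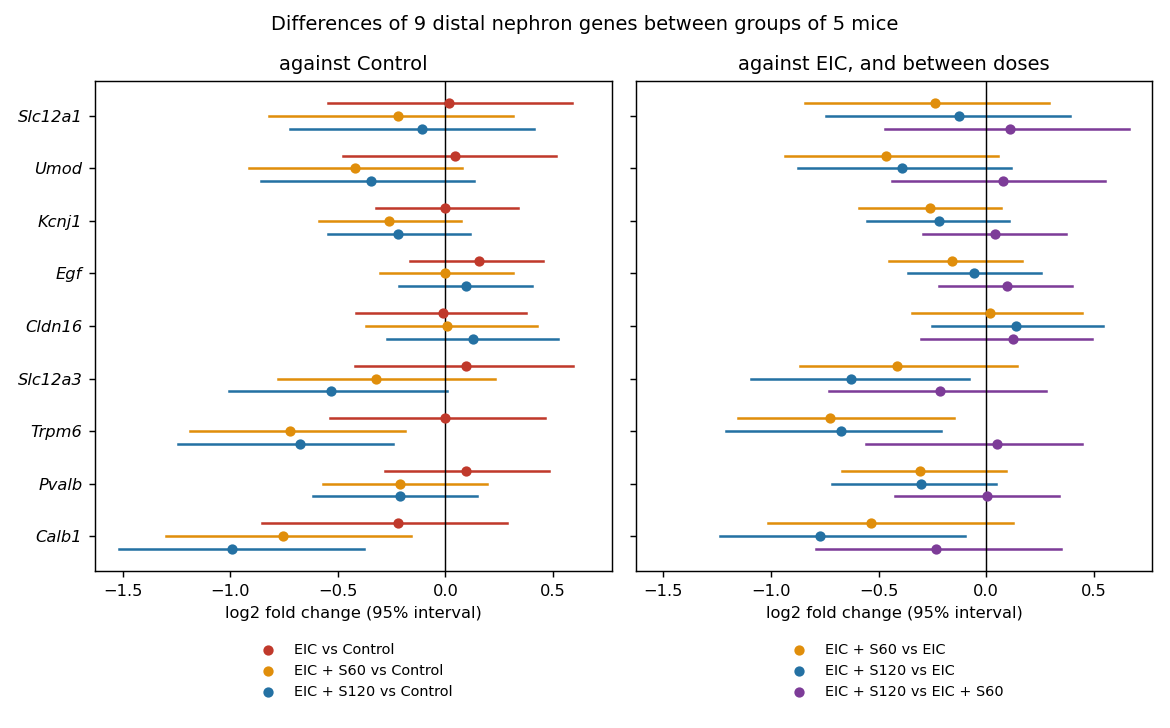
Log2 fold changes of the 9 genes with 95% intervals, against Control on the left and against EIC and between doses on the right, from all 20 mice. Intervals of Trpm6 and Calb1 lie below 0 for both sparsentan doses against Control, while those of the 5 TAL genes include 0 in all 6 comparisons. Those of the DCT genes Slc12a3 and Pvalb include 0 against Control at both doses. The intervals are not adjusted for the number of genes, and no member was DE by edgeR.

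Per mouse, Calb1 was also set against Slc12a3, another DCT gene, as the ratio of their CPMs. The ratio ran from 1.24 to 1.76 in Control (mean 1.49 ± 0.224, n = 5) and from 1.01 to 1.20 in EIC + S120 (1.08 ± 0.0704), so that these groups did not overlap. In EIC it ran from 0.872 to 1.65 and in EIC + S60 from 0.899 to 1.66, which overlaps with both. The ratio was chosen after the levels were seen and was not tested. Calb1 by itself already did not overlap between Control and EIC + S120, and ratios of genes outside the members were not computed. Other ratios were computed too. Calb1 over Slc12a1 overlapped between Control (0.219 to 0.323) and EIC + S120 (0.0715 to 0.248). Trpm6 over Slc12a3 overlapped among all 4 groups, from 0.0175 to 0.0420. Slc12a3, Umod and Kcnj1, each over Slc12a1, overlapped between Control and EIC + S120 too.

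Levels inside groups were compared between genes. With the group mean taken off log2 CPM, Pearson's r over the 20 mice was 0.68 to 0.92 in the 6 pairs among Slc12a1, Umod, Kcnj1 and Egf, with a median of 0.80. Among Slc12a3, Trpm6, Pvalb and Calb1 it was 0.59 to 0.81 in 6 pairs, with a median of 0.79. In the 16 pairs that join a gene of the first set to one of the second it was -0.29 to 0.45, with a median of 0.18. That pooled value joins groups of unlike sign. In Control all 16 of these pairs had a positive r (0.52 to 0.99), in EIC 12 did, in EIC + S60 4 did, and in EIC + S120 all 16 were negative (-0.75 to -0.02). In EIC + S120, mouse 77 lay farthest from the group mean in Slc12a1 (0.756) and Slc12a3 (-0.647). The negative signs of that group thus lean in part on this mouse. The 6 pairs of the TAL set were positive in every group, whereas among the DCT set in EIC + S60 only Pvalb and Calb1 were high (0.79) and the other 5 pairs had r between -0.02 and 0.35. Each group holds 5 mice, and no difference between groups in r was tested. These values describe the 20 mice and carry no test, since the points of a mouse share its library and its depth.

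Slc12a1 and Kcnj1, the transporter and the channel of salt uptake in the TAL, were most alike, with r = 0.92, Spearman's rho = 0.91, and r = 0.90 without the 2 mice farthest from the median of Slc12a1. Umod and Egf, both secreted into the urine, followed with r = 0.90 (rho = 0.85, and 0.87 without the 2 farthest mice). Among DCT genes, Pvalb and Calb1 had r = 0.81 (rho = 0.86, and 0.82), and Slc12a3 and Calb1 had r = 0.80 (rho = 0.67, and 0.72). Slc12a1 and Slc12a3, the cotransporters of the adjoining segments, had r = -0.11 (rho = -0.09, and -0.14). By group their r was 0.68 in Control, -0.17 in EIC, -0.34 in EIC + S60 and -0.71 in EIC + S120, over 5 mice each, a difference that was not tested. The value of EIC + S120 rests largely on mouse 77, which had the highest Slc12a1 and the lowest Slc12a3 of that group.

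Cldn16 lay between the sets. Its r was 0.23 with Slc12a1 and 0.47 with Kcnj1, but 0.68 with Umod and 0.67 with Egf, and with the DCT genes it was 0.48 for Slc12a3, 0.61 for Calb1, 0.65 for Pvalb and 0.65 for Trpm6. By this measure over the 20 mice a gene named for the TAL was as near to the DCT genes as to those of its own segment.

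**Figure D3:**
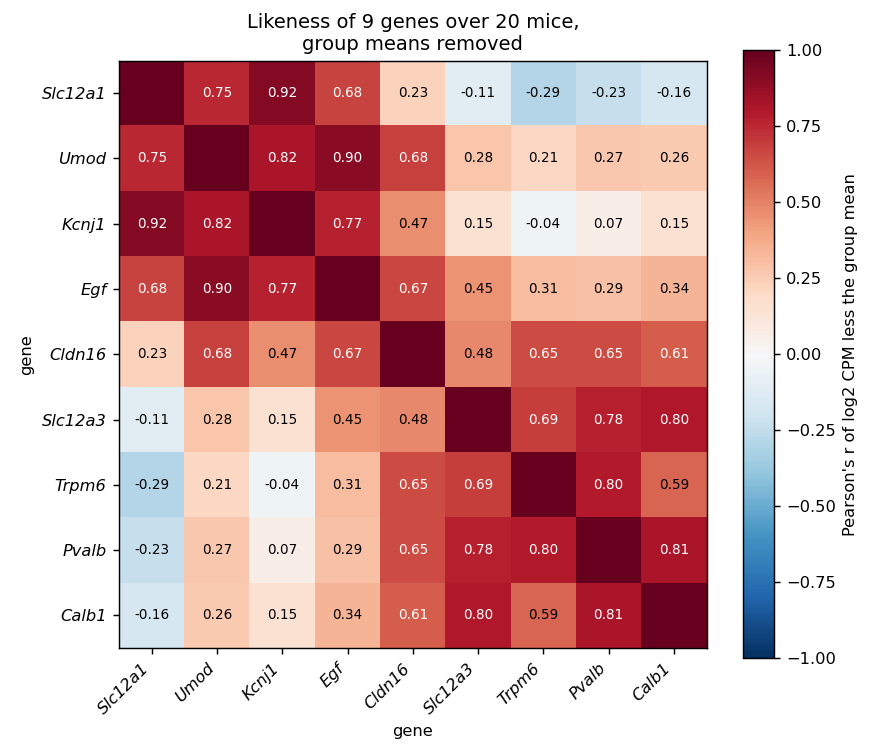
Pearson's r of log2 CPM less the group mean for each pair of the 9 genes over 20 mice (blue negative, red positive). Blocks of high r join Slc12a1, Umod, Kcnj1 and Egf (0.68 to 0.92) and Slc12a3, Trpm6, Pvalb and Calb1 (0.59 to 0.81), with Cldn16 between them, and the values pool 4 groups that differ in sign for pairs across the blocks and for some pairs of Cldn16.

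In some mice, picked after their values were seen, transcripts of the TAL and the DCT came apart. EIC + S120 77 had the highest Slc12a1 of all 20 mice (1634 CPM) together with the lowest Slc12a3 (97.5), Trpm6 (2.31), Pvalb (33.6) and Calb1 (117 CPM). EIC 67 had Slc12a1 at 1254 CPM, above its group mean of 1123, and Slc12a3 at 146 and Calb1 at 149 CPM, the lowest of its group. EIC 66 was the reverse, with Slc12a1 at 748 CPM, the lowest of its group, and Calb1 at 455 CPM, the highest. In other mice the transcripts went together. Control 653 had the highest Slc12a1 (1420.5 CPM), Slc12a3 (359), Trpm6 (8.09), Pvalb (79.2) and Calb1 (459 CPM) of its group. Control 651 had the lowest Slc12a1 (666 CPM), Pvalb (45.4) and Calb1 (210.1 CPM) of that group. Without EIC + S120 77, the LFC of Slc12a3 in EIC + S120 vs. EIC was -0.50 in place of -0.63, and that of Calb1 in EIC + S120 vs. Control was -0.89 (adjusted p = 0.0868 by edgeR).

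**Figure D4:**
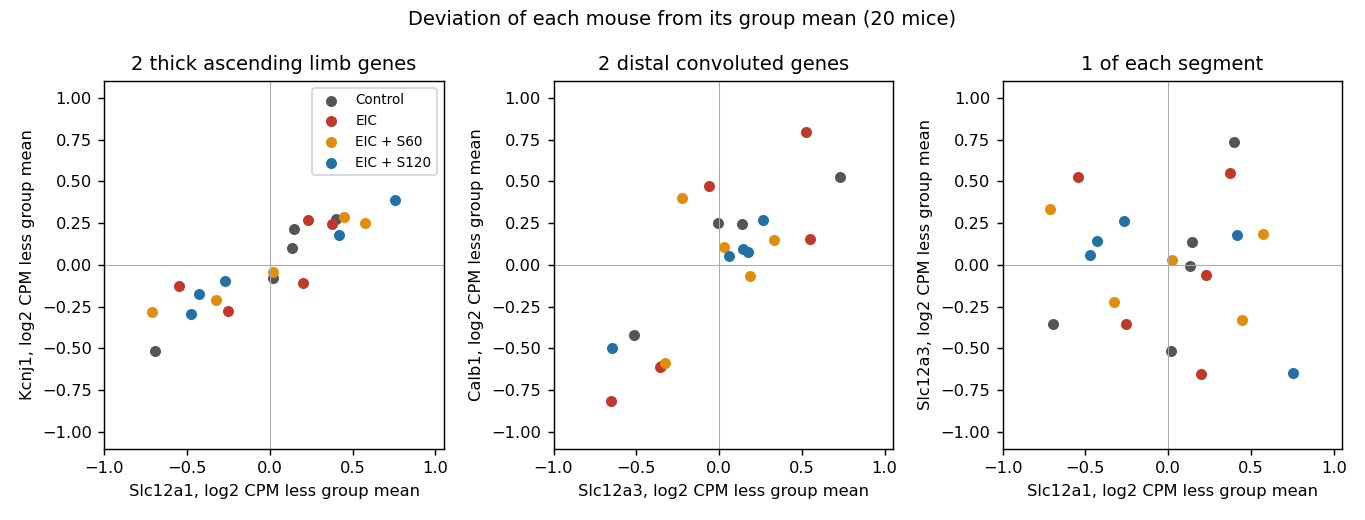
Deviation of each of 20 mice from its group mean in log2 CPM, Kcnj1 against Slc12a1 (r = 0.92), Calb1 against Slc12a3 (r = 0.80), and Slc12a3 against Slc12a1 (r = -0.11). Points in the first panels rise together, while those of the last, pooled from groups of unlike sign, do not, with EIC + S120 77 at the far right and near the bottom.

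Genes outside the set that were nearest to each member were found by the same r among the other 13981 genes tested. Slc12a1 was nearest to Ptger3 (r = 0.96), the prostaglandin E2 receptor EP3 that is found in the TAL, then to Gm13111 (0.96) and Tmem72 (0.96), a kidney membrane protein. Kcnj1 was nearest to Nudt4 (0.96), Tmem72 (0.95) and GBAS (0.95), so that Tmem72 stood beside both salt transport genes. Umod was nearest to Eif1a (0.89), Stk32b (0.89) and Pcsk7 (0.84), and Egf to Casr (0.87), the calcium-sensing receptor of the TAL, Pcsk7 (0.87) and Spire1 (0.85). Cldn16 was nearest to Klk1b5 (0.82), Tmem35a (0.82) and Defb1 (0.80), a defensin made in the distal nephron.

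Around the DCT genes, Calb1 was nearest to Pgam2 (r = 0.91), a phosphoglycerate mutase, Trpv5 (0.91), the epithelial calcium channel, and Clu (0.89), and Pvalb to Pgam2 (0.85), Malrd1 (0.84) and Echs1 (0.83). Among the genes nearest to Slc12a3 were Cwh43 (0.85) and Cyb5rl (0.84), and Trpm6 was nearest to Wdr45b (0.90), Mynn (0.85) and Psmc6 (0.85). Without the 2 farthest mice these values lay between 0.74, for Psmc6, and 0.89. With 20 mice and 13981 candidates some high values arise in any case, and the low counts of Trpm6 make its list the least certain.

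Other genes of the same segments were taken from lists by role. Of all 13981 other genes tested, 48.0% were closer to Slc12a1 and 52.0% to Slc12a3. Of 15 genes of TAL and macula densa identity, 14 were closer to Slc12a1 than to Slc12a3, with a median r of 0.84 against -0.13, and Tmem52b (-0.41 against 0.79) was the exception. Esrrb had r = 0.94 with Slc12a1, and Irx1 0.86, both transcription factors of the segment. Of 14 genes of TAL salt and divalent cation transport, 9 were closer to Slc12a1, among them the tight junction gene Cldn19 (0.91) and Tmem207 (0.94). The other 5 were closer to Slc12a3. Of 12 distal calcium genes, 10 were closer to Slc12a3, led by Trpv5 (0.78) and the sodium-calcium exchanger Slc8a1 (0.73), and of 10 distal magnesium genes 7 were, led by Cnnm2 (0.77). Of 8 genes of DCT identity, 5 were closer to Slc12a3. Lists of other cell types were as one-sided, since 8 of 8 podocyte, 10 of 12 proximal tubule and 7 of 9 intercalated cell genes were closer to Slc12a3 and 12 of 12 macrophage genes to Slc12a1, so these counts are not particular to the segments.

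Slc12a1 also moved with genes of the medulla and against those of the cortex. Of 10 medullary and osmotic genes, 9 were closer to Slc12a1 than to Slc12a3, with a median r of 0.68, among them the urea transporter gene Slc14a2 (0.78). All 8 podocyte genes had a negative r with Slc12a1, with a median of -0.76 and values from -0.83 to -0.56, and the 12 proximal tubule genes had a median of -0.59. With Slc12a3 the medians were -0.25, -0.15 and 0.01. Slc14a2 itself ranged from 0.291 CPM in EIC 66 to 122 CPM in Control 653. These markers of medulla, glomerulus and proximal tubule thus moved with the spread of Slc12a1 inside groups, and their part in it was not tested.

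**Figure D5:**
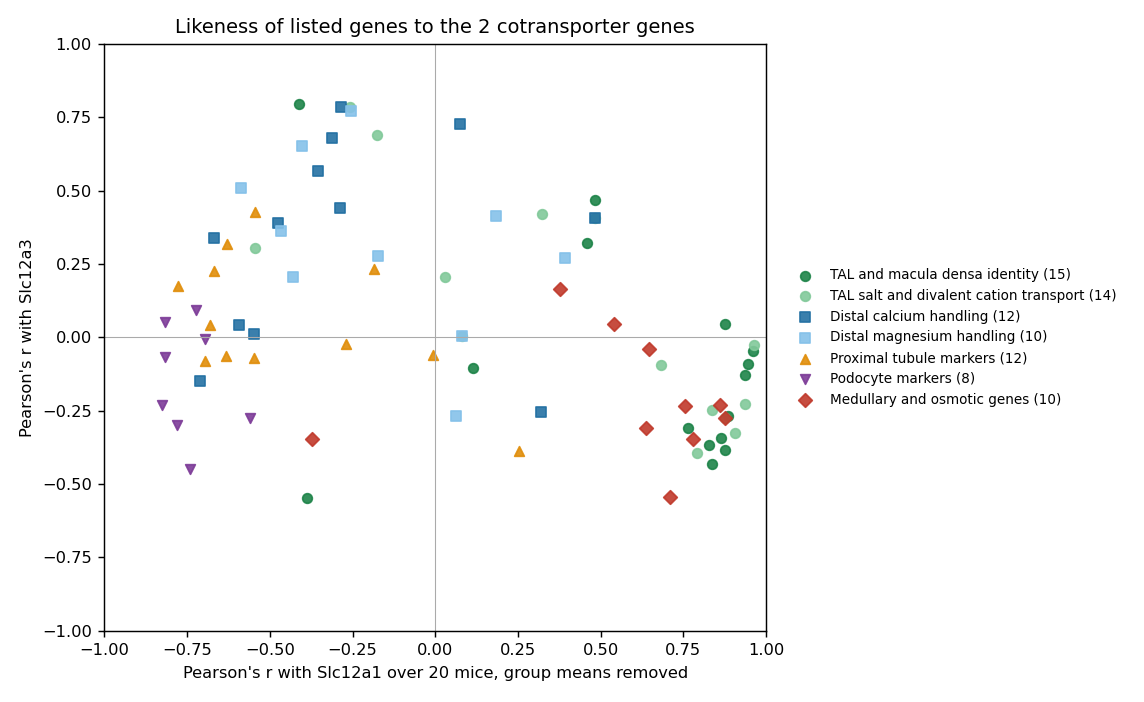
Each point is a listed gene, placed by its Pearson's r with Slc12a1 (horizontal) and with Slc12a3 (vertical) over 20 mice after removal of group means, and the number of genes per list is in the legend. Most TAL identity and medullary genes lie at the right, podocyte and proximal genes at the left, and most distal calcium and magnesium genes at the top.

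DE genes of the same pathways are given beside the share over all genes. Over all genes tested by edgeR, 1.61% were higher and 1.37% lower in EIC vs. Control, 0.808% and 0.479% in EIC + S60 vs. Control, and 2.89% and 2.67% in EIC + S120 vs. Control. None of the 14 tested genes of TAL salt and divalent cation transport was DE by edgeR in EIC vs. Control, EIC + S60 vs. Control or EIC + S120 vs. Control, and their median LFCs were -0.05, -0.10 and -0.09. In EIC + S120 vs. Control the LFC was 0.29 for Fxyd2, the gamma subunit of the Na-K-ATPase (adjusted p = 0.129 by edgeR), -0.32 for Slc9a3, the sodium-proton exchanger NHE3 (adjusted p = 0.0948), and -0.64 for Ptger3 (adjusted p = 0.287). Among 15 identity genes, Defb1 was lower in both sparsentan groups than in Control, by an LFC of -0.59 in EIC + S60 (adjusted p = 0.0234 by edgeR) and -0.52 in EIC + S120 (adjusted p = 0.0207).

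Control of the cotransporters was followed through 16 genes of the WNK-SPAK pathway. In EIC + S120 vs. Control, 1 of them fell: Kcnj10, the basolateral potassium channel Kir4.1 of the DCT, from a mean of 91.5 to 67.5 CPM, with an LFC of -0.44 (SE 0.11, adjusted p = 0.0171 by edgeR) and no overlap between the groups. The kinases had LFCs of -0.23 for Wnk1 (adjusted p = 0.238), -0.12 for Wnk4 (adjusted p = 0.478) and -0.31 for Stk39, which encodes SPAK (adjusted p = 0.223). Klhl3, which marks WNK kinases for removal, had an LFC of -0.35 (adjusted p = 0.123), and the aldosterone-regulated kinase Sgk1 one of 1.495 (SE 0.49, adjusted p = 0.119). In EIC vs. Control none of the 16 was DE, and their median LFC was -0.03.

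Genes of calcium and magnesium handling were followed next. Of 12 calcium genes, Atp2b4, a plasma membrane calcium pump, fell in EIC + S120 vs. Control by an LFC of -0.46 (SE 0.11, adjusted p = 0.0133 by edgeR), and Trpv6, a calcium channel, rose in EIC + S60 vs. Control from a mean of 1.09 to 2.17 CPM, an LFC of 0.97 (SE 0.20, adjusted p = 0.0290). These are low levels. No gene of the list was called higher in EIC vs. Control or in EIC + S120 vs. Control, where the largest LFCs of the list were 0.60 and 0.37. Trpv5, nearest of the calcium channels to Calb1, had an LFC of -0.12 at the higher dose against Control (adjusted p = 0.821), Slc8a1 of -0.66 (adjusted p = 0.108) and Cyp24a1, which degrades vitamin D, of -0.76 (adjusted p = 0.282). None of the 10 magnesium genes tested was DE against Control in any group. Among them Egfr, the receptor of EGF, had an LFC of -0.35 in EIC vs. Control (adjusted p = 0.0745). Of 8 DCT identity genes, Kcnj10 and Slc16a7, a monocarboxylate transporter with an LFC of -0.65 (adjusted p = 0.0278), fell in EIC + S120 vs. Control.

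Markers of other cells moved in the same comparisons. In EIC + S120 vs. Control, 3 of 12 proximal tubule genes rose by edgeR: Miox by an LFC of 0.56 (adjusted p = 0.00138), Slc27a2 by 0.47 (adjusted p = 0.00291) and Slc13a3 by 0.51 (adjusted p = 0.0107). The summed level of that list was 13543 to 21116 CPM in Control and 17571 to 22237 in EIC + S120, and none of its genes was at 0. Of 10 principal cell genes of the collecting duct tested, Aqp3 fell by an LFC of -0.45 (adjusted p = 0.00291), and the summed level was 778 to 2035 CPM in Control and 590.4 to 1022 in EIC + S120. No intercalated cell or podocyte gene was DE against Control. Their part in the lower Calb1 was not tested.

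In EIC vs. Control, macrophage genes rose while the 9 distal genes had LFCs near 0. By edgeR, 6 of 12 were DE: Adgre1, Lyz2, C1qa, C1qb, C1qc and Fcgr1, with LFCs of 1.46 to 1.89, and the list's median LFC was 1.48. Its summed level was 92.2 to 117 CPM in Control and 113 to 280.3 CPM in EIC. Of 10 tubular injury genes tested, none was DE in EIC vs. Control, and their median LFC was -0.06.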

How the data were processed

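Kidney libraries of 20 mice, 1 library per mouse, were analyzed. Per the submitters' processing notes, the authors used Trimmomatic 0.36, STAR 2.5.2b, featureCounts and Subread 1.5.2 on GRCm38, and they deposited raw counts per gene, which are the values used here. The annotation and strand setting of featureCounts are not stated in these sources. Of 15780 genes listed, those reaching 10 counts in 5 or more libraries were tested, 13990 in all. Counts were scaled by TMM, and edgeR 4.0.16 (R 4.3.3, robust quasi-likelihood, 1 coefficient per group, all 20 libraries) tested 6 comparisons and any difference among the 4 groups, two-sided, with p adjusted by Benjamini-Hochberg over the 13990 genes. Limma-trend (limma 3.58.1), fitted to log2 CPM with prior count 2, gave the SEs and 95% intervals, so an interval need not be centered on the LFC of edgeR. DE genes had an adjusted p under 0.05.

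Lengths and coordinates came from GENCODE vM21, and promoters from RefSeq on GRCm38.p6. Groups followed the sample labels, doses and days the study's methods. P-values cover the spread between mice of a group. The members and lists were chosen with earlier results of these data known. The 9 members were named in every comparison. From lists of other genes, up to 4 with the smallest p in EIC vs. Control or EIC + S120 vs. Control, any gene of a list of 12 or fewer, and the 3 genes with the highest r to each member could be named, and genes named for their r with Slc12a1 or Slc12a3 were chosen after their values were seen. The 13 lists held 143 genes, 138 of them tested. Likeness is Pearson's r of log2 CPM less the group mean. Replicates of a group differed in their counts by more than sampling noise. The steps were tested on simulated data. Alternatives were RLE and upper quartile scaling, no filter, DESeq2 1.42.0, limma-voom, fits of only the groups compared, and leaving out libraries. Results for some genes are not reported here.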

Additional observations from a re-analysis of the deposited data

Results flagged for a closer look

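Among the 36 sets of 5 mice given by 9 genes and 4 groups, 2 held a mouse far from the other 4 of its group, and chance alone marks about 1 set in 20. Slc12a3 in EIC + S120 77 was at 97.5 CPM, where the nearest mouse of the group had 159 CPM and the gap was 0.719 of the group's range, above the limit of 0.71. Trpm6 in EIC + S60 75 was at 3.36 CPM, where the nearest mouse had 3.98 CPM and the gap was 0.779 of a narrow range. That library was the deepest of its group, with 27948916 counts.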

How the results depend on the processing

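No paired analysis was possible because the groups share no mouse numbers. None of the 9 genes was called by edgeR with TMM scaling, a fit of all 20 mice and the filter in place. Of 1692 alternative values of members, 1640 kept their side of the threshold and, where they were LFCs, their direction. Those for any difference among the groups are adjusted p values and have no direction. Some of the fits left out a mouse of neither group compared, which hardly moves an LFC. Calb1 in EIC + S120 vs. Control came past the threshold by adjusted p with upper quartile scaling (0.0499), DESeq2 (0.0109), limma-voom (0.0435), a fit of only those groups (0.0379), and without Control 651 (0.0351), Control 655 (0.04995), EIC 66 (0.0384), EIC 67 (0.0342) or EIC 68 (0.0434). Its adjusted p over all alternatives was 0.0109 to 0.127 and its LFC -1.11 to -0.85. Trpm6 came past it in EIC + S60 vs. Control fitted alone (0.0330), in EIC + S120 vs. Control without EIC + S120 81 (0.0286), and, for any difference among groups, with DESeq2 (0.0253) and without that mouse (0.0284), and Calb1 did so with DESeq2 (0.0253).

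LFCs changed sign only where they were near 0, in no case above 0.11 in size (an LFC that rounds to 0.00 was given no sign). Without the 2 deepest Control libraries the LFC in EIC vs. Control was -0.12 for Slc12a1 and 0.0491 for Cldn16, and limma-voom gave -0.0326 for Trpm6 in EIC + S120 vs. EIC + S60. Over fits that left out 1 mouse, LFCs in EIC vs. Control ran from -0.11 to 0.15 for Slc12a1, -0.13 to 0.18 for Umod, -0.11 to 0.14 for Cldn16, -0.0512 to 0.32 for Slc12a3 and -0.0068 to 0.19 for Pvalb. They ran in EIC + S60 vs. EIC from -0.0822 to 0.12 for Cldn16, in EIC + S120 vs. EIC from -0.16 to 0.0586 for Egf, in EIC + S60 vs. Control from -0.10 to 0.15 for Cldn16, and in EIC + S120 vs. Control from -0.34 to 0.0072 for Slc12a1. Between the doses they ran from -0.12 to 0.27 for Slc12a1, -0.0875 to 0.21 for Umod, -0.0662 to 0.12 for Kcnj1 and -0.20 to 0.20 for Trpm6.

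Counts of DE genes over the whole table moved more. In EIC vs. Control the 416 became 704 with DESeq2, 143 with only those groups and 124 without the 2 deepest Control libraries. The 0 of EIC + S60 vs. EIC became 5 with DESeq2 and 1 with only those groups. The 8 of EIC + S120 vs. EIC became 5 with RLE scaling or no filter, 65 with DESeq2, 4 with limma-voom and 2 with only those groups. The 180 of EIC + S60 vs. Control became 359 with DESeq2 and 119 without the 2 deepest Control libraries. The 9 of EIC + S120 vs. EIC + S60 became 81 with DESeq2, and for any difference the 497 became 1028 with DESeq2 and 235 without those libraries. Leaving out 1 mouse gave 233 to 465 in EIC vs. Control, 0 to 1 in EIC + S60 vs. EIC, 1 to 14 in EIC + S120 vs. EIC, 103 to 224 in EIC + S60 vs. Control, 489 to 1172 in EIC + S120 vs. Control, 2 to 54 in EIC + S120 vs. EIC + S60 and 303 to 726 for any difference. The causes were not tested. Precision was limited by 5 mice a group and, for Trpm6, by counts of 39 to 300 a library.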
